A study of Mus musculus with 12 samples.

Results

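Horizontal cells are the inhibitory interneurons of the outer retina, which collect the signals of many photoreceptors and feed back on them. The genes described are 5 that mark this cell type or direct its formation: the transcription factor genes Onecut1, Onecut2, Lhx1 and Prox1, and Calb1, which encodes the calcium-binding protein calbindin. They were taken by name from 31358 protein-coding and long noncoding genes, and each locus is the gene in the GENCODE M21 annotation of mm10 with 5 kb on each side. At these loci, cytosine modification was compared between Cre- controls and Tet tcKO animals, which lack Tet1, Tet2 and Tet3, with whole retinas taken at postnatal day 21. All animals are labelled as strain C57 BL/6J. The Cre- group has the genotype label WT and came from Cre-negative breeders, and the Tet tcKO group carries floxed alleles of the TET genes that a Chx10-driven Cre-GFP transgene recombines in retinal progenitors. The Cre-carrying animals were bred to hold a pair of transgene copies to limit mosaic recombination. Whole-genome bisulfite sequencing (WGBS) and bACE-seq each had 3 libraries per group, 12 in all. The paper reports that DNA came from retinas pooled from a pair of animals and that both assays used it. The assays are thus not independent samples of animals.

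DNA methylation (5mC) is placed on the cytosine of CG dinucleotides (CpGs), and the TET enzymes oxidise it to 5-hydroxymethylcytosine (5hmC), a step of active demethylation and also a stable mark in neurons. WGBS reads 5mC and 5hmC together, whereas bACE-seq uses a deaminase that leaves 5hmC as the only signal. Start sites of developmental genes often lie in CpG-dense DNA with little methylation, while gene bodies of neurons carry much of their 5hmC. In horizontal cell formation Onecut1 and Onecut2 act in progenitors and early precursors, Lhx1 directs the migration and placement of the young cells, and Prox1 drives their differentiation. Prox1 and Calb1 are also used by other retinal neurons, amacrine cells among them. No RNA was analysed here, so which cells used the genes was not checked. Horizontal cells are a small part of whole retina, and a shift in the mix of cell types cannot be told apart from a shift of the level within a cell type.

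The values are the levels the authors gave each differentially methylated region they called, as the mean of each group. These means come without the spread between libraries and without read depth, so no difference below could be set against replicate error and none was tested. A region is in a list because the same groups differed there, which makes its levels a description. A stretch outside the lists may still have changed. A WGBS region higher in Tet tcKO is called a WGBS gain and a bACE-seq region lower in Tet tcKO a 5hmC loss.

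Every listed region at the 5 loci had more WGBS signal or less 5hmC in Tet tcKO than in Cre- retina. The loci held 45 WGBS gains and 91 5hmC losses, with 0 WGBS regions lower and 0 bACE-seq regions higher in Tet tcKO. All 5 genes had a WGBS gain in the locus, which 78.0% of all genes also had, and all 5 had a 5hmC loss, as did 90.8% of all genes. The opposite kinds were rare over all genes, where 4.44% had a WGBS region lower and 0.351% a bACE-seq region higher in Tet tcKO. Within 2 kb of a start site, 3 of the 5 genes (Onecut1, Prox1 and Calb1) had a WGBS gain, beside 50.6% of all genes. A 5hmC loss lay in that window in 3 of the 5 (Onecut1, Onecut2 and Prox1), beside 81.3% of all genes. Since most genes of the genome had such regions, having them did not set the 5 genes apart.

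The genes differed in how much of the locus was covered. WGBS gains held 56.5% of the CpGs at Prox1, 22.6% at Onecut1, 13.4% at Onecut2, 10.3% at Calb1 and 1.03% at Lhx1. Over all genes the median share was 6.70%, and the middle 50% of genes lay between 1.62% and 13.3%. Prox1 had a larger share than 99.7% of all genes, and only 94 of the 31358 genes had a larger one. It was above 98.3% of genes without the flanks, and 99.7% with only regions that differed by at least 0.1 or that held at least 10 CpGs. Onecut1 was above 91.3% of genes, Onecut2 above 75.3%, Calb1 above 65.1% and Lhx1 above 23.0%. The place of Onecut2 was less firm, since it was above only 51.4% of genes with regions that differed by at least 0.1, where it had a share of 5.11% and all genes a median of 4.89%. Lhx1 was above 38.8% of genes without the flanks, and with either stricter choice of regions it had a share of 0.

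The 5hmC losses spread over a different range. They held 55.5% of the CpGs at Prox1, 43.8% at Onecut2, 24.0% at Onecut1, 23.6% at Calb1 and 1.03% at Lhx1, where the median of all genes was 37.3%. Only Prox1 and Onecut2 lay above that median, at 77.8% and 60.5% of genes. Onecut1 and Calb1 were close to each other in this measure, above 30.6% and 30.1% of genes, while Lhx1 was above 9.32%. Onecut1 thus stood high among genes by its WGBS share and low by its 5hmC share. Over the 5 loci, 915 of 3577 CpGs (25.6%) were in a WGBS gain and 1248 (34.9%) in a 5hmC loss, against 10.9% and 42.7% of the CpGs of all gene loci. Prox1 carried much of the WGBS share, which was 12.8% over the other 4 genes, and 26.4% of their CpGs were in a 5hmC loss.

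**Figure D1:**
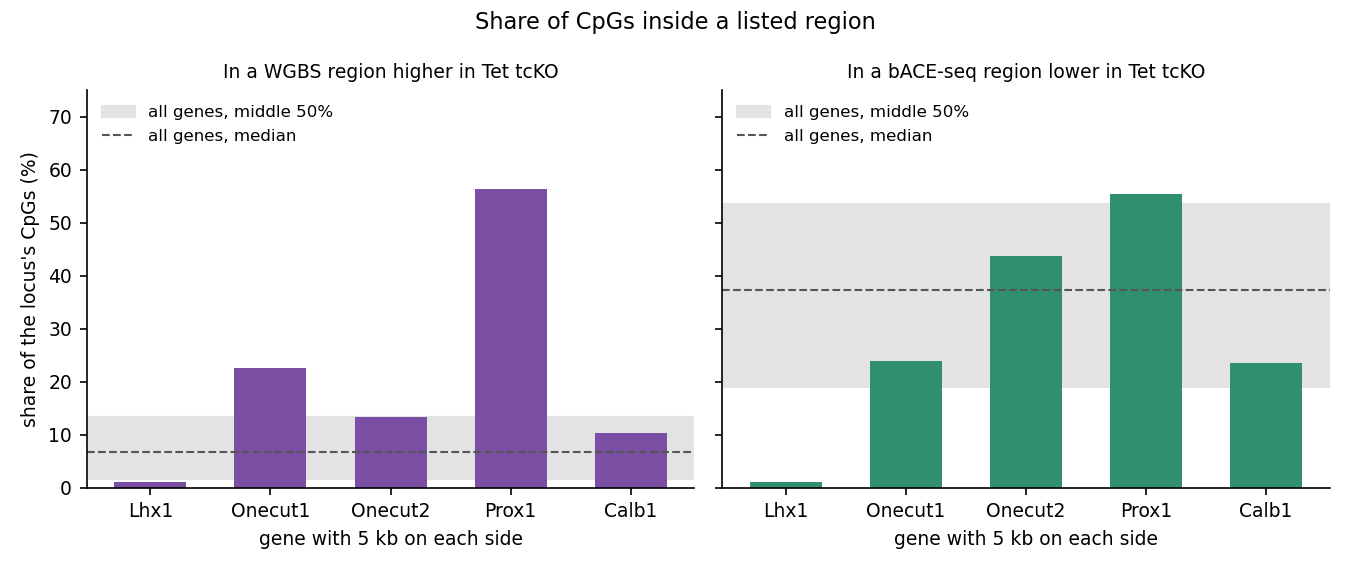
Share of the CpGs of each locus (gene with 5 kb on each side, in %) inside a WGBS region higher in Tet tcKO (left) or a bACE-seq region lower in Tet tcKO (right), with the median and the middle 50% of 31358 genes. Prox1 stood at 56.5% and 55.5%, and Lhx1 at 1.03% in both panels.

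Onecut1 (ENSMUSG00000043013.10), a homeodomain factor needed early in horizontal cell formation, spans chr9:74861921-74891781 on the plus strand. Its locus had 709 CpGs, 10 WGBS gains and 18 5hmC losses. Averaged over the CpGs of its regions, WGBS stood at 31.3% in Cre- retina and 44.3% in Tet tcKO retina, and 5hmC at 11.0% and 2.16%. The noncoding gene Gm20649 overlaps the whole of Onecut1, so a region here belongs to both annotations. The region of the locus nearest the start site began 2032 bp and ended 844 bp upstream of it, at chr9:74859889-74861077, and had the same bounds in both lists. Over its 30 CpGs WGBS stood at 28.4% in Cre- retina and 40.4% in Tet tcKO retina, and 5hmC at 5.09% and 1.18%. Of the 215 CpGs within 2 kb of the start site, 13.5% were in a gain and 13.5% in a loss.

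Along Onecut1 the level of the gains differed with their position. The gain with the most CpGs (48) was intronic, at chr9:74865856-74867297, where WGBS went from 13.7% to 27.0%. A further intronic gain of 23 CpGs, which began 6647 bp from the start, went from 14.0% to 21.7%. Beyond 8 kb the gains of the locus began at 58.7% to 66.3% in Cre- and reached 78.3% to 83.9% in Tet tcKO. The region with the largest difference was there, 24853 bp into the gene, where 4 CpGs went from 58.7% in Cre- to 83.9% in Tet tcKO, a difference of 25.2 percentage points. A gain over the end of the coding sequence, with 290 coding bases and 17 CpGs, went from 66.3% to 80.7%. The largest 5hmC difference was at chr9:74869811-74870251, with 22.2% in Cre- and 4.69% in Tet tcKO over 8 CpGs. Within the gene, the gains near the start were thus low in WGBS signal in both groups, and those toward the 3′ end were high in both.

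The sequence before the Onecut1 start site and that of its region of largest difference show the contrast in CpG content, with each CpG in capitals. The sequence before the start site (RefSeq, GRCm38.p6) is chr9:74861671-74861920 on the plus strand, holds 31 CpGs in 250 bases and was in neither list. Over 32851 RefSeq start sites, such a window of 250 bases had a median of 6 CpGs. The central 300 bases of the intronic region, chr9:74886780-74887079 on the plus strand, hold 2 of its 4 CpGs.
Onecut1 start: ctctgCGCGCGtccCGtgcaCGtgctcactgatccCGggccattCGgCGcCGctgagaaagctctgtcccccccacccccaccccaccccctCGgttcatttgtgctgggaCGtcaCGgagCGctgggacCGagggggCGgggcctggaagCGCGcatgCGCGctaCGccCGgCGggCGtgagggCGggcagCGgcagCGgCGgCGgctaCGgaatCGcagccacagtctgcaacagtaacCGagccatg
Onecut1 intron: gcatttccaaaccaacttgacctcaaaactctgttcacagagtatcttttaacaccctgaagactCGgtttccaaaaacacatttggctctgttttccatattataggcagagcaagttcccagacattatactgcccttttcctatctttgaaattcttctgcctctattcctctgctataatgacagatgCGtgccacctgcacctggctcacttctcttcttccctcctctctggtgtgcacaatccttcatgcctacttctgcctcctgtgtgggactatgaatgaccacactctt

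Onecut2 (ENSMUSG00000045991.19), the paralogue of Onecut1, spans chr18:64340020-64400987 on the plus strand and has the longest body of the 5 genes. Its 979 CpGs were covered unevenly by the assays, with 8 WGBS gains over 13.4% and 33 5hmC losses over 43.8%. The gains had a mean WGBS level of 32.9% in Cre- retina and 44.8% in Tet tcKO retina, and the losses a mean 5hmC level of 13.7% and 3.23%. No WGBS gain lay within 2 kb of its start site. The nearest began 4175 bp downstream, and the stretch around the start site without a gain held 391 CpGs over 10952 bp. A 5hmC loss of 5 CpGs lay in the window, at 1662 to 1750 bp, with 3.33% in Cre- and 0.576% in Tet tcKO.

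The Onecut2 gain with the most CpGs (76) lay 4852 to 6579 bp into the gene and went from 13.9% in Cre- to 23.2% in Tet tcKO. Over the whole locus, 45 of the 236 CpGs in dense DNA (at least 25 CpGs within 500 bp) were in a gain. Farther into the gene, gains at 9254 and 10399 bp began at 71.8% and 81.7% and reached 87.1% and 92.6%. The largest difference was in the 3′ untranslated region, at the end of the gene, where 5 CpGs went from 38.3% to 61.0%, or 22.8 points. A gain in another part of the same untranslated region went from 88.8% to 94.2%, so parts of the same untranslated region differed in level.

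5hmC losses were spread along the whole body of Onecut2. From 20 kb to the end of the gene the Cre- level stayed between 5.15% and 21.2%, and the Tet tcKO level between 0.959% and 7.56%. The loss of 26 CpGs at 9254 to 11120 bp had the largest difference, 22.1% in Cre- and 4.86% in Tet tcKO, and it covered the gains that began at 9254 and 10399 bp. The loss with the most CpGs (49) went from 11.4% to 1.67%. A short region of 5 CpGs in 58 bp, 38423 bp into the gene, kept more 5hmC than any other loss at the 5 loci, with 16.1% in Cre- and 7.56% in Tet tcKO, or 47.1% of the Cre- level. All 8 WGBS gains of Onecut2 overlapped a 5hmC loss, compared with 6 of 10 at Onecut1 and 81.2% of gains over the whole list. The Onecut2 gain with the largest difference met a loss only at the boundary base of each end.

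The Onecut paralogues had similar WGBS levels and similar shares of dense CpGs, 24.8% at Onecut1 and 24.1% at Onecut2. They differed in which assay covered more of the locus. At Onecut1 the CpGs in gains (160) and in losses (170) were close in number, while at Onecut2 losses covered 429 CpGs and gains 131. With group means only, neither contrast could be tested.

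Lhx1 (ENSMUSG00000018698.15), a LIM-homeodomain factor that places horizontal cells in their layer, spans chr11:84518284-84525535 on the minus strand. It had the smallest covered share of the 5 genes, with 1 WGBS gain and 1 5hmC loss among 580 CpGs. The gain lay in coding sequence, at chr11:84519804-84519890, and its 6 CpGs went from 4.02% in Cre- to 7.60% in Tet tcKO, the lowest levels and the smallest difference (3.57 points) of all 45 gains. The loss lay 2562 to 2708 bp upstream of the start, at chr11:84528097-84528243 inside the antisense gene Lhx1os, and its 6 CpGs went from 5.47% to 0.934%. Neither region overlapped one of the other assay. With a flank of 10 kb on each side, 5.78% of the CpGs were in a gain and 9.39% in a loss.

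The Lhx1 locus was the most CpG-dense of the 5. It had 3.36 CpGs per 100 bp, and 292 of its CpGs (50.3%) lay in dense DNA, a share that had a median of 6.79% over all genes. None of these 292 CpGs was in a gain or a loss. This did not set Lhx1 apart, since over the 19087 genes with dense CpGs the median of either share was also 0. The stretch around the start site without a gain was 10701 bp long and held 417 CpGs, and that without a loss was 16153 bp long and held 540. The 250 bases before the Lhx1 start site, chr11:84525535-84525784 (RefSeq, GRCm38.p6, minus strand), hold 26 CpGs and belong to that stretch. The coding gain is printed with 1 base more than listed, chr11:84519804-84519891 on the minus strand, so that each of its 6 CpGs is whole (capitals).
Lhx1 start: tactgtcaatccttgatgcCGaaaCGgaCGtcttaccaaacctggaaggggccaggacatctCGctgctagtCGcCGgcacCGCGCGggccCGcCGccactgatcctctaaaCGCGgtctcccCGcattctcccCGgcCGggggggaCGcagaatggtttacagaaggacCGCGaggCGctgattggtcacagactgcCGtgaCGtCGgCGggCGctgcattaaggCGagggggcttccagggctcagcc
Lhx1 coding gain: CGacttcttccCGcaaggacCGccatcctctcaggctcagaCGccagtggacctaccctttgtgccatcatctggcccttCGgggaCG

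Prox1 (ENSMUSG00000010175.13), a homeobox factor that drives horizontal cell differentiation, spans chr1:190118035-190170714 on the minus strand. It had 22 of the 45 WGBS gains and 31 of the 91 5hmC losses. Of its 1046 CpGs, 591 were in a gain and 581 in a loss, and 353 were in both. Averaged over the CpGs of its regions, WGBS stood at 46.5% in Cre- retina and 64.3% in Tet tcKO retina, and 5hmC at 16.5% and 4.29%. Gains covered 68.3% of the intronic CpGs and 53.7% of the exonic ones, and losses covered 69.7% and 85.2%. The downstream flank had 0 gains, while losses covered 70.0% of its 60 CpGs.

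Upstream of Prox1 lay the region with the most CpGs of all 45 gains. It runs over 3290 bp at chr1:190172396-190175685, between 1682 and 4971 bp upstream of the start, and overlaps the antisense gene Prox1os. Its 152 CpGs stood at 10.1% in Cre- and 28.0% in Tet tcKO. A neighbouring gain of 14 CpGs at chr1:190171833-190172329, nearer the start site, went from 6.72% to 20.8%. All 138 CpGs of the upstream flank beyond the start site window were in a gain, and 37.7% were in a loss. The 5hmC losses within this stretch were low in both groups. The largest of them had 40 CpGs and went from 5.15% to 0.998%, and a pair farther upstream went from 3.14% to 0.159% and from 5.55% to 0.910%. These losses held 60 CpGs, and the 5hmC level over the rest of the long gain is not in the lists.

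Inside Prox1 most gains began at higher levels. The largest difference of all 45 gains was intronic, at chr1:190159158-190159749, where 13 CpGs went from 26.4% in Cre- to 54.7% in Tet tcKO, or 28.2 points. A short gain beside it, 10484 bp into the gene, went from 28.9% to 50.9%. The next region toward the start, chr1:190160691-190162307, held 1556 coding bases and 58 CpGs and was already at 76.0% in Cre-, where Tet tcKO reached 86.3%. The intragenic gain with the most CpGs (88), at chr1:190146008-190150170, went from 49.8% to 67.4%. The gains with the lowest Cre- levels of the gene body thus lay beside a coding exon with a high level.

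Prox1 also had the highest 5hmC levels of the 5 genes. The loss at chr1:190152984-190154913 stood at 27.0% in Cre- and 7.91% in Tet tcKO over 37 CpGs. The largest difference was 20.0 points at chr1:190138384-190139424, where 22 CpGs went from 25.8% to 5.79%. Over the large coding exon a loss of 61 CpGs, the most of any loss at the 5 loci, went from 17.1% to 5.51%. Of the 22 gains 19 overlapped a loss by at least 1 bp, some at a boundary base only, and of the 31 losses 19 overlapped a gain. The share of losses that overlapped a gain was 61.3% at Prox1, at most 38.9% at each of the other 4 genes, and 24.1% over the whole list.

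The 250 bases before the Prox1 start site (RefSeq, GRCm38.p6, minus strand) are chr1:190170828-190171077 and hold 20 CpGs. The RefSeq start site lies 113 bases upstream of the GENCODE one. This window was in neither list, and the nearest gains lay 1119 bp upstream and 4050 bp downstream of the GENCODE start site. The central 300 bases of the intronic region with the largest difference, chr1:190159304-190159603 on the minus strand, hold 8 of its 13 CpGs (capitals).
Prox1 start: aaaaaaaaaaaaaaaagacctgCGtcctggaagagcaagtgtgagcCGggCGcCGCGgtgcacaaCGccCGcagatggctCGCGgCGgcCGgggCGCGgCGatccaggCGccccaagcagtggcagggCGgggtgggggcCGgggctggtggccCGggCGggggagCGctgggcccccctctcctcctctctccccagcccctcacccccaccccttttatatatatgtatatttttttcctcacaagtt
Prox1 intron: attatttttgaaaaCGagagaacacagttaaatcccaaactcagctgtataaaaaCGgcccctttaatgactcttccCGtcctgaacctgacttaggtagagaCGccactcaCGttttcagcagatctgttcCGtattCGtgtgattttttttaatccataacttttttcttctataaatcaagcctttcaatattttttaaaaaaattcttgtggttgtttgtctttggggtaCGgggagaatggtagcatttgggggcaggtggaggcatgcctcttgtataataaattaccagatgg

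**Figure D2:**
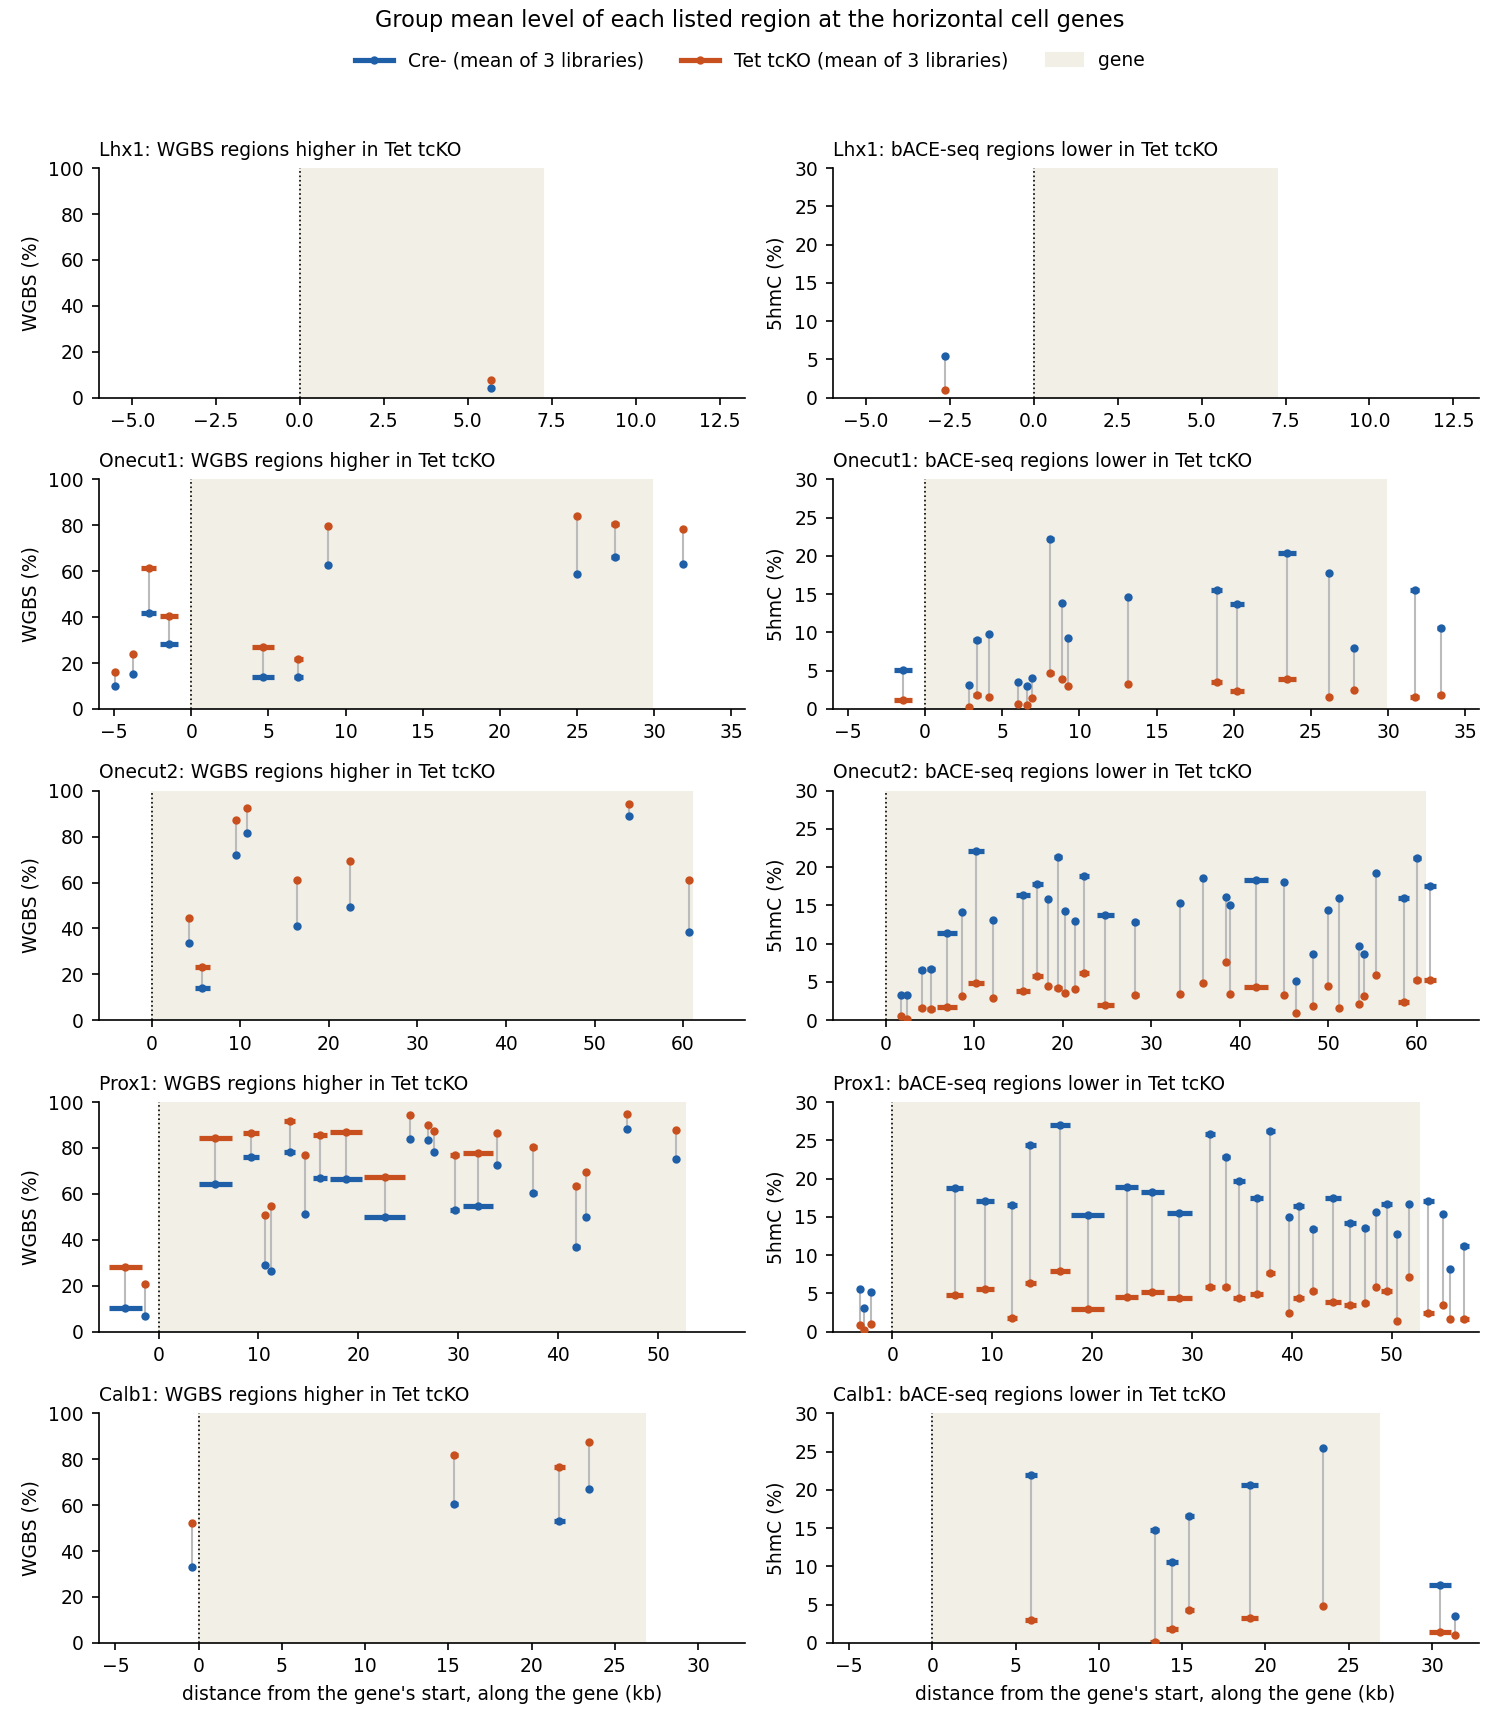
Group mean WGBS level (left, %) and 5hmC level (right, %) of each listed region at the 5 genes, plotted by distance from the gene's start (kb, dotted line). Blue and orange bars span the region at the level of Cre- and Tet tcKO retina, dots mark the middle, and the shaded area is the gene. All 45 WGBS regions lay higher and all 91 bACE-seq regions lower in Tet tcKO. No region covers the start of a gene, which also holds for most of all genes.

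Calb1 (ENSMUSG00000028222.2), whose product buffers calcium and is a common marker of mature horizontal cells, spans chr4:15881264-15908064 on the plus strand. It had the fewest CpGs of the 5 loci (263, or 0.715 per 100 bp), with 4 gains and 8 losses. Its gains had the highest mean WGBS level of the 5 genes, with 53.7% in Cre- retina against 75.2% in Tet tcKO, and its losses a mean 5hmC level of 13.9% against 2.37%. The region nearest a start site at any of the 5 genes was here, 327 to 478 bp upstream, where 5 CpGs went from 33.2% to 52.2%. No 5hmC loss lay within 2 kb of the start site, and none within 11216 bp upstream of it. The gain with the most CpGs (10), which also had the largest difference of the gene, was intronic and went from 53.1% to 76.7%, or 23.5 points. A region at chr4:15904609-15904820, over 111 coding bases and part of the 3′ untranslated sequence, had the same bounds in both lists. Its 4 CpGs went from 67.1% to 87.5% in WGBS and from 25.5% to 4.82% in 5hmC, the largest 5hmC difference of the 91 losses (20.7 points).

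The losses of Calb1 left between 0.726% and 29.2% of the Cre- 5hmC level in Tet tcKO. An intronic loss of 4 CpGs, 13051 bp into the gene, went from 14.8% to 0.107%, and the loss with the most CpGs (20), at chr4:15895264-15896036, from 10.6% to 1.76%. In the downstream flank the Cre- level was only 7.58% and 3.52%, and Tet tcKO retina stood at 1.42% and 1.02%. The sequence of the gain before the start site, printed with 1 base more as chr4:15880786-15880938 on the plus strand (GRCm38.p6), holds 5 CpGs (capitals) in 153 bases. It lies upstream of the 250 bases directly before the start. Its count is therefore not comparable with those of the windows at Onecut1, Lhx1 and Prox1.
Calb1 gain before the start: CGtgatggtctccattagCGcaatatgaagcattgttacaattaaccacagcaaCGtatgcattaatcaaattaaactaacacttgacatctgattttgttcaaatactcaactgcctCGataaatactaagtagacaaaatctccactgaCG

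No start site of the 5 genes lay inside a listed region of either kind. Of all 31358 genes, 2204 had the start inside a WGBS region and 5724 inside a bACE-seq region. Having none there thus did not set the 5 genes apart. Around the start of the gene, the stretch without a WGBS gain ranged from 4778 bp at Onecut1 and 5168 bp at Prox1 to 10701 bp at Lhx1, 10952 bp at Onecut2 and 15457 bp at Calb1. Over the 29107 genes whose start site was outside every WGBS region and had a region on either side, the median was 18457 bp and 235 CpGs. In CpGs these stretches at Lhx1 (417) and Onecut2 (391) were longer than the median, and those at Onecut1 (228), Prox1 (166) and Calb1 (139) shorter. For bACE-seq the median stretch was 91 CpGs, and all 5 genes had more, from 131 at Calb1 to 540 at Lhx1.

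Coverage by position followed the same outline over the pooled loci. Of the 1032 CpGs within 2 kb of a start site, 6.01% were in a gain and 4.07% in a loss. Exons had 26.6% of their CpGs in a gain and 53.7% in a loss, and introns 38.6% and 55.5%. The upstream flanks had 50.2% in a gain, of which 138 of 153 CpGs were at Prox1 and the other 15 at Onecut1. The downstream flanks had 2.24% in a gain, all at Onecut1, and 27.2% in a loss, found at every gene but Lhx1.

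**Figure D3:**
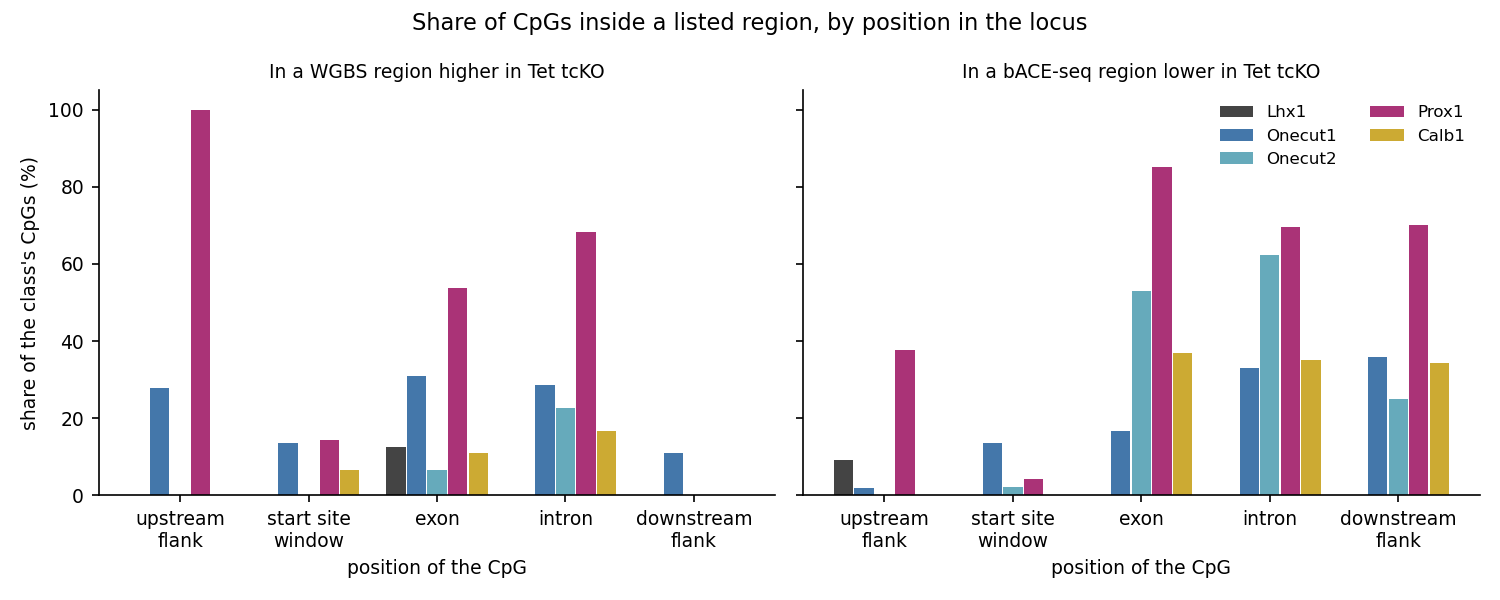
Share of the CpGs of each position class (%) inside a WGBS region higher in Tet tcKO (left) or a bACE-seq region lower in Tet tcKO (right), for each gene. The start site window had shares of at most 14.4%, while the upstream flank of Prox1 was wholly inside a WGBS gain.

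Over the pooled loci CpG-dense DNA was covered less than sparse DNA by both kinds of region, but at Onecut2 gains covered more of it. In all 14.8% of 943 dense CpGs and 29.4% of 2634 sparse ones were in a gain, against 5.31% and 11.7% over all genes. For losses the shares were 8.17% and 44.5%, against 9.54% and 47.3% over all genes. Both shares in gains rested largely on Prox1, where 93 of 204 dense CpGs (45.6%) and 498 of 842 sparse ones (59.1%) were in a gain. Without Prox1 the dense share was 6.36% of 739 CpGs, close to the value of all genes, and the sparse share 15.5% of 1792. Losses then held 5.68% of the dense and 34.9% of the sparse CpGs. At Onecut2 the dense share in gains was 19.1%, against 11.6% of its sparse CpGs. A single gain held 76 of the 131 CpGs in gains there. It differed by 9.34 points, so a required difference of at least 0.1 would leave it out. At Onecut1 the dense share was 1.14%. At Lhx1 and Calb1 it was 0 of 292 and 0 of 35 CpGs, which for Calb1 are too few to read a low share from. A share of 0 was common, since over the 19087 genes with dense CpGs its median and upper quartile were both 0.

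5hmC levels varied with CpG density as well. Losses with fewer than 2.5 CpGs per 100 bp had a mean 5hmC level of 17.1% in Cre- and 3.98% in Tet tcKO. Those with 2.5 to 5 CpGs had 10.1% and 2.80%, and those with 5 or more had 5.37% and 1.41%. Across the 91 losses the Cre- 5hmC level and CpG density had a Spearman's rho of -0.615, and across the 592551 losses of the whole list -0.479, a description of regions that share libraries and neighbours. For the Cre- WGBS level of gains the rho with density was -0.279 over 45 gains, 22 of them at Prox1, and 0.190 over 191036. Both are weak, and their difference was not tested. The part of the Cre- level that remained in Tet tcKO differed less, at 23.3%, 27.6% and 26.2% in the same classes. Over all losses of the 5 genes it was 24.1%, beside 24.0% for the whole list. These parts depend on the background of the assay, and taking an assumed 2 percentage points of unconverted cytosine from both means of the 5 genes would leave 12.1%. By gene, without such a subtraction, the part kept was 26.0% at Prox1, 23.5% at Onecut2, 19.6% at Onecut1, 17.1% at Calb1 and 17.1% at Lhx1. The value at Lhx1 rests on 1 loss of 6 CpGs, whose Tet tcKO level of 0.934% is under 2 points. Differences between the genes in this part were not tested and depend on the background.

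**Figure D4:**
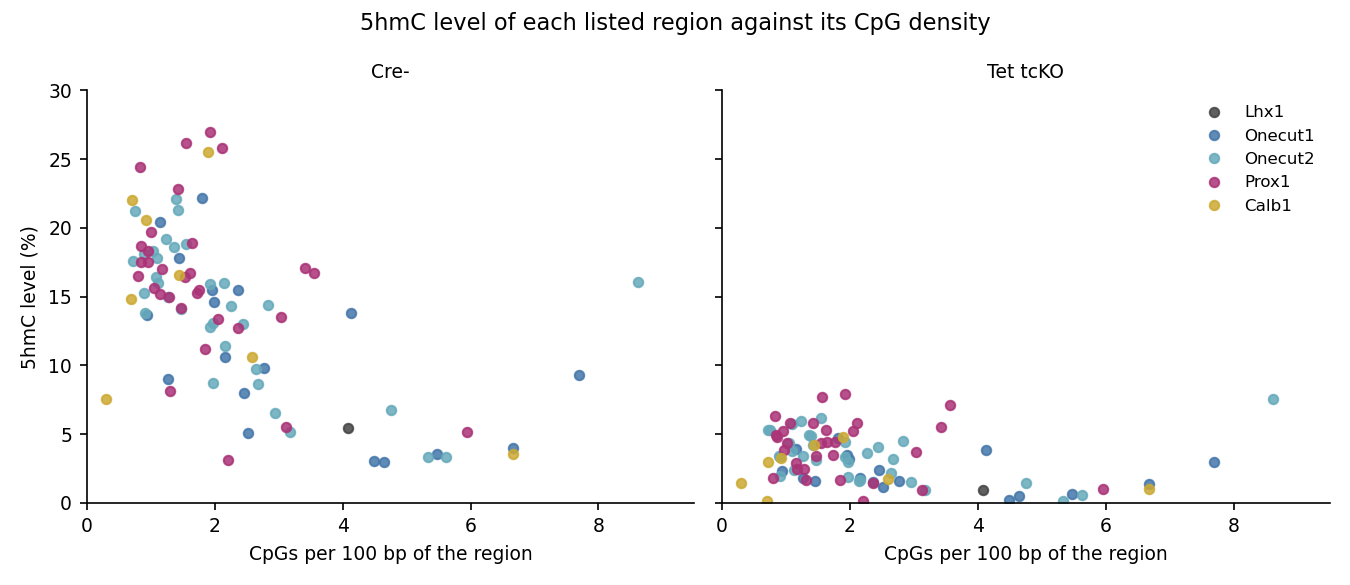
5hmC level (%) of each of the 91 losses against the CpGs per 100 bp of the region, in Cre- (left) and Tet tcKO retina (right), coloured by gene. Cre- levels reached 27.0% in sparse regions and were mostly under 10% in dense ones, while Tet tcKO levels stayed at or below 7.91%.

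WGBS gains of the 5 genes lay at lower levels than those of the whole list, with a similar difference. Averaged over CpGs, they went from 41.8% in Cre- to 57.9% in Tet tcKO, and all gains from 56.7% to 74.1%, a difference of 16.1 and 17.4 points. The 11 gains under 30% in Cre- held 376 of the 916 CpGs of the gains (1 of which lies past the edge of a locus) and went from 13.6% to 27.9%. The 14 gains between 30% and 60% went from 48.9% to 69.8%, and the 20 gains at 60% or more from 71.8% to 86.4%. The middle class had the largest difference, 20.9 points. Gains farther from a start site had higher Cre- levels, with a rho of 0.570 between distance and level across the 45 gains, which share libraries.

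A total of 539 CpGs at 4 of the genes lay inside both a gain and a loss, where the assays can be set side by side. The lists give no level per CpG, so each CpG was given the mean of its whole gain and of its whole loss, which also cover CpGs outside the overlap. On this basis WGBS went from 48.4% in Cre- to 63.9% in Tet tcKO, and 5hmC from 15.0% to 3.87%. Subtracting the 5hmC level from the WGBS level, which leaves mostly 5mC, gave 33.5% in Cre- and 60.1% in Tet tcKO. The part of the WGBS signal that was 5hmC went from 30.9% to 6.05%. By gene the remainder after subtraction went from 28.2% to 47.4% at Onecut1 (64 CpGs), from 21.7% to 42.9% at Onecut2 (111 CpGs), from 37.8% to 67.2% at Prox1 (353 CpGs) and from 43.1% to 79.3% at Calb1 (11 CpGs). WGBS counts 5hmC as modified, and its difference alone, 15.5 points, was smaller than that of the remainder. The choice of CpGs inside both a gain and a loss fixed both directions in advance, so only the sizes describe the data. Of the 45 gains 35 (77.8%) overlapped a loss, near the 81.2% of the whole list, and of the 91 losses 38 (41.8%) overlapped a gain, against 24.1% of the whole list, with 19 of the 38 at Prox1.

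**Figure D5:**
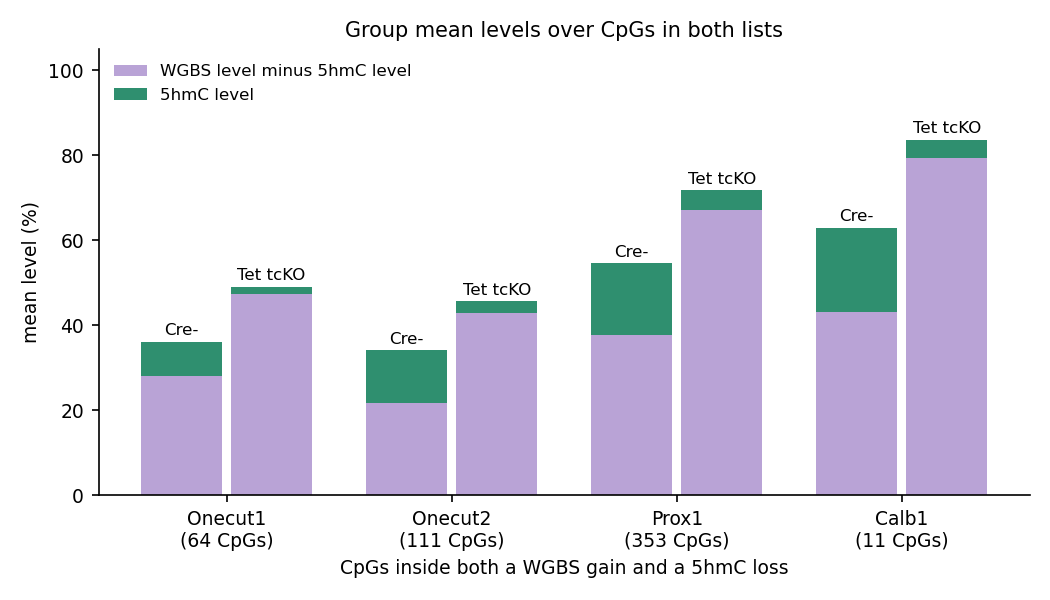
Mean level (%) over the CpGs inside both a WGBS gain and a 5hmC loss, each CpG given the mean of its whole regions, for Cre- and Tet tcKO retina at 4 genes. Each bar's full height is the WGBS level, split into the 5hmC level and the remainder, at 67.2% in Tet tcKO against 37.8% in Cre- at Prox1. The choice of CpGs fixed in advance that the remainder is higher in Tet tcKO.

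A list of 15 other genes of horizontal cells had a smaller pooled share of CpGs in a gain, a contrast that rested mostly on Prox1. It holds transcription factor genes (Foxn4, Ptf1a, Tfap2a, Tfap2b, Sall3, Onecut3, Isl1) and genes of the mature cell for gap junctions, spacing, transmission by GABA and neurofilaments. Whether each of these factors, Isl1 among them, acts in mouse horizontal cells was not checked. Of the 15 genes, 12 had a WGBS gain and 13 a 5hmC loss in the locus, near the shares of all genes given above, and 0 had a region of the opposite kind. Pooled, 10.2% of their CpGs were in a gain and 32.3% in a loss, against 25.6% and 34.9% for the 5 genes. Without Prox1 the shares of the latter were 12.8% and 26.4%. Over the 15 genes the median share of CpGs in a gain was 4.86%, against 13.4% over the 5 genes. Foxn4, which acts in progenitors before the Onecut factors, had the highest shares, 24.2% for gains and 67.8% for losses. Tfap2b, a factor of horizontal and amacrine cells, had 0 regions of either kind over 593 CpGs. No gene of this list reached the WGBS share of Prox1, and the dense CpGs of the list were in a gain in 1.49% of cases. That share was 6.36% over the 5 genes without Prox1 and 5.31% over all genes.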

How the data were processed

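Per the methods and the submitters' processing notes, the authors trimmed reads with Trim Galore (0.4.4), used Bismark (0.18.2) for alignment to mm10, dropped alignments of mapping quality below 10 and duplicate reads (Picard), took CpG levels with MethylDackel (0.6.1) and summed the strands. Regions came from DSS (2.48.0) after smoothing over neighbouring CpGs, so that bounds and levels both draw on them, at p of 0.01 with at least 3 CpGs and 50 bp, merged within 50 bp.

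The deposited lists give each region's mean level per group as a fraction of reads, printed here in percent, and its number of CpGs. The group order follows the order of names the authors gave the lists. The deposited difference and area statistic are the authors' own comparison and were not used. Depth and the spread between libraries were not analysed here.

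Listed CpG numbers equalled the reference (GRCm38.p6) at the loci in 45 of 45 regions (WGBS) and in 90 of 91 (bACE-seq). Overlap needed 1 bp, mean levels were weighted by CpGs, and windows of 2 kb around any annotated start site took precedence over exon, intron and flank. Percentages over all genes used chromosomes 1 to 19 and X. Counting was tested on simulated regions (Python 3.11.15, numpy 2.4.6, pandas 2.3.3).

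The 5 genes, the 15 other genes and the alternatives were chosen with earlier results of these data known. Named at each gene were the regions with the most CpGs, with the largest difference and within 2 kb of a start site, together with further regions chosen after their values were seen. With a single mean per group no test was run, and no gene of similar pattern was sought. RefSeq windows before the start site were found for Lhx1, Onecut1 and Prox1. Another sequence at Calb1 is not reported here.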

Additional observations from a re-analysis of the deposited data

How the results depend on the processing

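The alternatives choose or reweight the listed regions, so none could turn a region's direction. Of 114 alternative values 44 stayed within the tolerance (a count within 1.5 times, a level or share within its exact 95% binomial interval over CpGs, which covers counting only). Requiring at least 10 CpGs left 25 gains and 49 losses, with 22.5% and 27.7% of CpGs covered. A difference of at least 0.1 left 54 losses and shares of 21.5% and 21.6%, and one of at least 0.2 left 15 gains and 1 loss, with 5.70% and 0.112%. By bases the shares were 17.3% and 33.0%. Without flanks losses covered 40.8% of CpGs, and with flanks of 10 kb gains covered 23.3%. The mean WGBS levels of Cre- and Tet tcKO were 50.3% and 66.4% without flanks, 50.5% and 66.6% as unweighted means, and 49.2% and 66.7% weighted by base pairs. Leaving out Prox1, chosen after seeing the data, gave 23 gains, 60 losses, shares of 12.8% and 26.4% and WGBS levels of 33.3% and 46.4%. A start site window of 5 kb held a gain at all 5 genes and one of 1 kb at 2. For single genes, 19 values stayed within the tolerance and 41 moved past it. The 5hmC levels stayed within it under each alternative run for them. The part of 5hmC kept was 18.5% after subtracting 1 percentage point for unconverted cytosine and 12.1%, past the tolerance, after subtracting 2, a setting also added after seeing the data. The place of each gene among all genes under other settings was also added after seeing the data. No paired analysis was possible because the lists hold a single mean per group, and for the same reason no library was left out. Read coverage outside the listed regions is unknown, which limits what the lack of regions at Lhx1 and around the start sites shows.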

Other observations

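Among the other horizontal cell genes, the coverage of each group rested largely on 1 or a pair of genes. The transcription factor genes had 7.61% of their 4455 CpGs in a WGBS gain and 21.0% in a 5hmC loss. The genes of the mature cell had 11.6% and 38.2% of 8415 CpGs, against 10.9% and 42.7% over all gene loci. Without Megf10 and Megf11 the shares of the mature genes were 5.05% and 19.6% of 3186 CpGs. Among the factors, Foxn4 alone held 144 of the 339 CpGs in a gain and 403 of the 937 in a loss. The factors were not recounted without Foxn4, so no order between the groups can be read from these shares. The adhesion receptor genes Megf10 and Megf11, which space horizontal cells, had 27 and 56 gains and 76 and 156 losses. They had 15.7% and 15.5% of CpGs in a gain and 50.6% and 48.9% in a loss. The GABA synthesis genes Gad1 and Gad2 were lower and close to each other, with 8.98% and 7.29% in a gain and 28.8% and 28.1% in a loss. Slc32a1, which loads GABA into vesicles, had 1.75% and 4.59%, and 52.8% of its CpGs lay in dense DNA, a makeup near that of Lhx1. Isl1, a LIM-homeodomain factor, had 1 gain of 11 CpGs and 0 losses, and Ptf1a, a factor of horizontal and amacrine cells, 0 gains and 4 losses. The Nefm locus contains the neighbouring Nefl gene, so their values share regions.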
